A study of Prunus persica with 12 samples.

Results

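In the fruit flesh of the peach cultivar 'Jin Xiu Huang Tao', 45 genes stood apart from 3 other cultivars, 15 of them higher and 30 lower. Between the other cultivars, and over ripening in 1 of them, their levels kept within a set span. That span was wider than the distance required of 'Jin Xiu Huang Tao'. They were chosen by their measured values among 27864 gene identifiers. The quantity used was x, the log2 of a group's mean RPKM plus 1, where RPKM is reads per unit of gene length and of library depth. A gene was taken when x spanned less than 1.2 over the 5 groups other than 'Jin Xiu Huang Tao' and x in that cultivar lay at least 0.8 above the highest or below the lowest of them. A mean of at least 5 RPKM in some group and an RPKM under 500 in some library were also required, and ppa006109m was left out by name. The differences between that cultivar and the others are therefore a description of the choice and carry no test.

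Peach is a climacteric fruit, in which ethylene starts a ripening programme that softens the flesh, builds up aroma volatiles such as lactones and shifts the transcripts of many genes. A transcript that differs between cultivars may simply follow how ripe each was picked, or may keep its level through ripening and mark the cultivar itself. The words Huang Tao in the cultivar's name mean yellow peach, and yellow flesh is known for keeping carotenoids that white flesh breaks down.

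The 12 RNA-seq libraries came from fruit mesocarp, the edible flesh, with 2 libraries in each of 6 groups. JX2 is 'Jin Xiu Huang Tao' at the stage numbered 2, with strong aroma, soft melting flesh and a Brix (soluble solids) of 12. It was set beside 'Hu Jing Mi Lu' at 3 ripening stages, HJ1 with slight aroma and no Brix given, HJ2 with strong aroma and a Brix of 12.1, and HJ3 with strong aroma and a Brix of 12.5. The remaining groups were 'Yu Lu' (YL2, strong aroma, Brix 14.9) and 'Zhong Hua Shou Tao' (ZH2, slight aroma, Brix 18), both at stage 2. All groups had soft melting flesh except ZH2, which was hard melting. The stage numbers do not say how ripe the fruit of different cultivars were, each cultivar stands for itself alone, and the labels are silent on whether paired libraries stem from different fruit or trees. Calls by a test therefore measure the spread between libraries, which may be technical. In whole flesh, fewer cells of a type and less RNA per cell cannot be told apart.

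Depth was low and was worked back from the values. The JX2 libraries held 1699524 and 1524800 reads, and the others held between 1205507 and 3222252. For a gene of 1 kb, 3 reads were worth 1.77 and 1.97 RPKM in the JX2 libraries. Pearson's r between the JX2 libraries was 0.963 across genes, which are not independent replicates, and the other pairs lay between 0.961 and 0.978. The files did not pair identifiers with names, and 0 of them matched the gene table at hand, so genes are given by identifier with no function, and markers of flesh could not be looked up.

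Of the 27864 identifiers, 5597 met every condition but the distance of JX2, and the 45 genes were 0.804% of these. At the limit of 0.8, the nearest higher gene inside lay 0.86 above the other groups, and the nearest outside lay 0.79 and 0.78 above. The nearest lower genes inside lay at -0.80 and -0.81, and the nearest outside at -0.79 and -0.79. The span over the 5 other groups had a median of 0.57 in the higher genes (0 to 1.199) and 0.83 in the lower genes (0.28 to 1.16). The limit on the span alone kept out 37 higher and 57 lower genes. ppa006109m spanned 2.60 over the 5 groups and would not have met that limit. The same rule with YL2 in the place of JX2 took 87 higher and 88 lower genes, and with ZH2 it took 22 higher and 59 lower.

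The split between higher and lower genes followed the scaling of the libraries. Higher genes made up 33.3% of the 45 on the RPKM as deposited. After each library was rescaled by its median ratio, the rule took 24 higher and 19 lower genes, 55.8% higher. When each library was instead scaled by its sum of RPKM without its 10 most abundant genes, the rule took 35 and 31, 53.0% higher. That scaling also makes these sums equal between libraries. All 15 higher genes stayed above, and all 30 lower genes below, each of the other 5 groups under both scalings, but not all by the full distance. The smallest distance of a lower gene was -0.48 after rescaling and -0.45 without the abundant genes. Of the 30 lower genes, 14 and 19 still met the rule under these scalings, and all 15 higher genes did, so that the lower genes taken there were in part other genes. The median over all genes shifted with the rescaling by 0.29 for JX2 against HJ1 and by 0.13 for JX2 against HJ2, on the log2 scale.

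The 15 higher genes had a median JX2 mean of 12.9 RPKM, from 5.26 to 410, and a median of 1.99 RPKM over the mean of the other 5 groups. Their median distance above the nearest group was 1.92 on the log2(RPKM + 1) scale. The median log2 difference of JX2 was 2.16 against HJ1, 2.17 against HJ2, 1.92 against HJ3, 2.44 against YL2 and 2.07 against ZH2. Over all 15217 genes that reached 1 RPKM in 2 or more libraries, the medians were -0.36, -0.14, 0.02, 0.00 and 0.05. The higher genes fell into 3 sets by their level outside JX2, with 6 nearly silent there (every other group mean under 1 RPKM), 4 read at 10 RPKM or more in every other group, and 5 in between. Genes named beyond the leading pair in each direction were singled out after their values were seen.

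**Figure D1:**
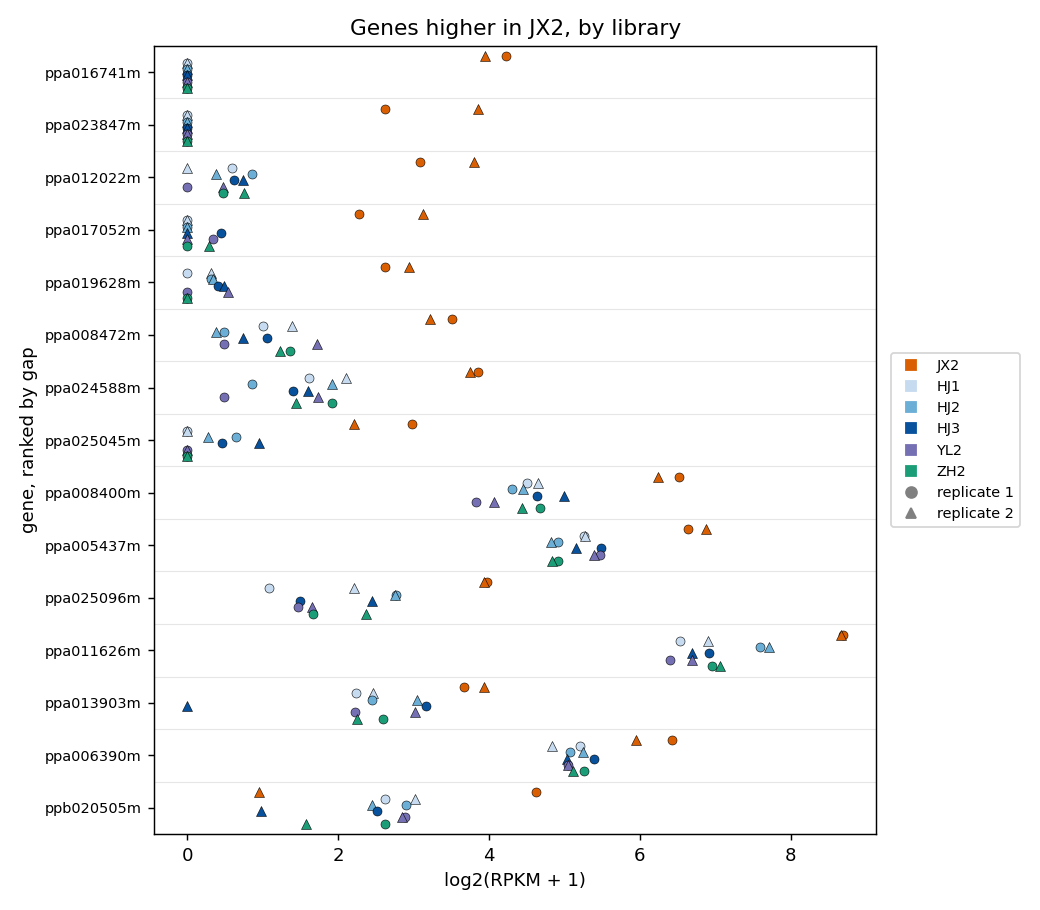
RPKM on the log2(RPKM + 1) scale (x axis) of the 15 genes higher in JX2 (y axis, by distance from the nearest group), with a point per library, JX2 in orange, circles for replicate 1 and triangles for replicate 2. Both JX2 points lie right of all others in 14 genes; in ppb020505m the JX2 points lie 3.66 apart.

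The gene ppa016741m was read in JX2 and nowhere else. Its RPKM was 17.7 and 14.5 in the JX2 libraries, on 19 and 14 reads, against 0 in all 10 other libraries. The JX2 mean was 16.1 ± 2.23 RPKM (SD, n = 2), and the pooled JX2 reads were at least 76.8-fold higher than 3 reads over the 10 other libraries would give. The gene ppa023847m had the same pattern on fewer reads. It stood at 5.16 and 13.4 RPKM in JX2, on 3 and 7 reads, against 0 in the other 10, and was at least 23.3-fold higher on the same floor. Both bounds take the JX2 reads as exact. With counting error in both groups and against HJ1 alone, the lower limit of the 95% interval of the ratio was 8.25 for ppa016741m and 2.19 for ppa023847m. Reads of this pair are the fewest whole reads that fit the values, since a gene read in 1 group alone leaves little to divide by. A count of 0 reads shows that these transcripts were not detected at this depth.

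The other 4 nearly silent genes had few reads outside JX2. RPKM of ppa012022m was 7.53 and 12.9 in JX2, against 0.507 and 0 at HJ1, 0.806 and 0.305 at HJ2 and 0.542 and 0.67 at HJ3, with 0 and 0.386 in YL2 and 0.393 and 0.681 in ZH2. JX2 held 33 reads and the other 10 libraries together 10, and corrected for depth JX2 had 16.8 times the reads of HJ3, with a 95% counting interval of 4.30 to 145. The gene ppa017052m had 28 reads in JX2, at 3.86 and 7.75 RPKM, against 3 in the other 10 libraries, which never passed 0.362 RPKM. Only 1 of those reads lay in HJ3, the nearest group, so its ratio of 28.5 had an interval of 4.72 to 1166. The longest gene of the 45, ppa019628m at 3429 bp, rested on the most reads of the set. It stood at 5.15 and 6.69 RPKM in JX2 on 65 reads, against 0 to 0.457 RPKM on 14 reads in the other 10 libraries, and its ratio of reads to HJ3, the nearest group, was 16.6 (6.16 to 62.6). The gene ppa025045m stood at 6.90 and 3.62 RPKM in JX2, against 0.565 and 0.214 at HJ2 and 0.380 and 0.939 at HJ3, with 0 in HJ1, YL2 and ZH2. Its ratio to HJ3, on 3 reads there, was 8.49 (2.59 to 43.9). In all 6 genes the JX2 libraries lay apart from every other library.

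The 4 genes read everywhere rested on 391 to 1144 JX2 reads each. RPKM of ppa008400m was 91.1 and 74.8 in JX2, against 21.7 and 24.2 at HJ1, 18.9 and 20.9 at HJ2 and 23.9 and 30.9 at HJ3, with 13.2 and 15.8 in YL2 and 24.6 and 20.6 in ZH2. The JX2 mean of 83.0 ± 11.5 was 3.03 times the 27.4 ± 4.90 of HJ3, the nearest group (SD, n = 2). No other library passed 30.9 RPKM, and the other group means ran from 14.5 in YL2 to 27.4 in HJ3. The gene ppa005437m stood at 98.4 and 117 RPKM in JX2, against 37.4 and 37.7 at HJ1, 29.2 and 27.3 at HJ2 and 44.0 and 34.7 at HJ3, with 43.3 and 41.2 in YL2 and 29.2 and 27.6 in ZH2. Its JX2 mean was 2.54 times that of YL2. The gene ppa006390m stood at 84.9 and 60.8 RPKM in JX2, against 27.7 to 41.1 in the other 10 libraries, with a ratio of 2.00 to HJ3. Here the JX2 libraries differed from each other by more than any other pair did, yet both were above the rest.

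The most abundant of the 45 genes in JX2, ppa011626m, also differed between the stages of 'Hu Jing Mi Lu'. Its RPKM was 415 and 405 in JX2, against 91.7 and 119 at HJ1, 192 and 209 at HJ2 and 120 and 102 at HJ3, with 83.2 and 102 in YL2 and 123 and 133 in ZH2. HJ2 was thus the highest of the other groups and lay above both its neighbouring stages. The JX2 mean of 410 ± 7.12 was 2.04 times the 201 ± 11.9 of HJ2 (SD, n = 2).

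The 5 genes in between had JX2 means of 9.35 to 14.6 RPKM on 23 to 43 reads. RPKM of ppa008472m was 10.4 and 8.34 in JX2, against 0.304 to 2.30 in the other 10 libraries, and the JX2 mean was 6.41 times that of ZH2. The gene ppa024588m stood at 13.5 and 12.4 RPKM in JX2 and at 0.404 to 3.30 elsewhere, 4.83 times HJ1. The remaining 3 genes of the set stood nearer to the other groups. The gene ppa025096m stood at 14.8 and 14.3 RPKM in JX2, against 5.82 and 5.77 in HJ2, its nearest group, a ratio of 2.51. The gene ppa013903m stood at 11.7 and 14.2 RPKM in JX2 and at 0 to 7.97 elsewhere, 2.21 times HJ2. The gene ppb020505m was taken because of a single library. It stood at 23.6 RPKM on 28 reads in JX2 replicate 1 and at 0.938 RPKM on 1 read in replicate 2, against 0.973 to 7.12 RPKM in the other 10 libraries, so its groups overlapped and its JX2 libraries differed by 3.66 on the log2 scale, beside a distance of 0.86 from the nearest group. JX2 replicate 2 thus stood at the low end of the other libraries and not above them. It was level in reads with HJ3 replicate 2, which also held 1 read, at 0.973 RPKM.

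The 30 lower genes were mostly genes of low level in every group. Their median was 2.11 RPKM in JX2, from 0 to 107, and 7.22 RPKM over the mean of the other 5 groups. In JX2, 25 of the 30 had 20 reads or fewer, and the median was 8. Their median distance below the nearest group was -0.96, and the median log2 difference of JX2 was -1.43 against HJ1, -1.24 against HJ2, -1.19 against HJ3, -1.34 against YL2 and -1.15 against ZH2. A 95% counting interval of the ratio of reads to the nearest group held 1 for 14 of the 30, so that for these the distance was not detectable from counting alone. It held 1 for 0 of the 15 higher genes. These include ppb020505m (1.14 to 3.74), whose interval pools 28 reads in JX2 replicate 1 with 1 read in replicate 2. Replicate libraries differed by more than counting error, with a chi-square per degree of freedom from 1.75 in JX2 to 2.29 in HJ3. The intervals thus understate the spread between libraries. The choice used the same reads, so the counts of intervals that hold 1 describe the genes and carry no test. The minimum of 5 RPKM had to be met in JX2 by the higher genes and elsewhere by the lower genes. The counts of the higher and the lower genes are therefore not alike.

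**Figure D2:**
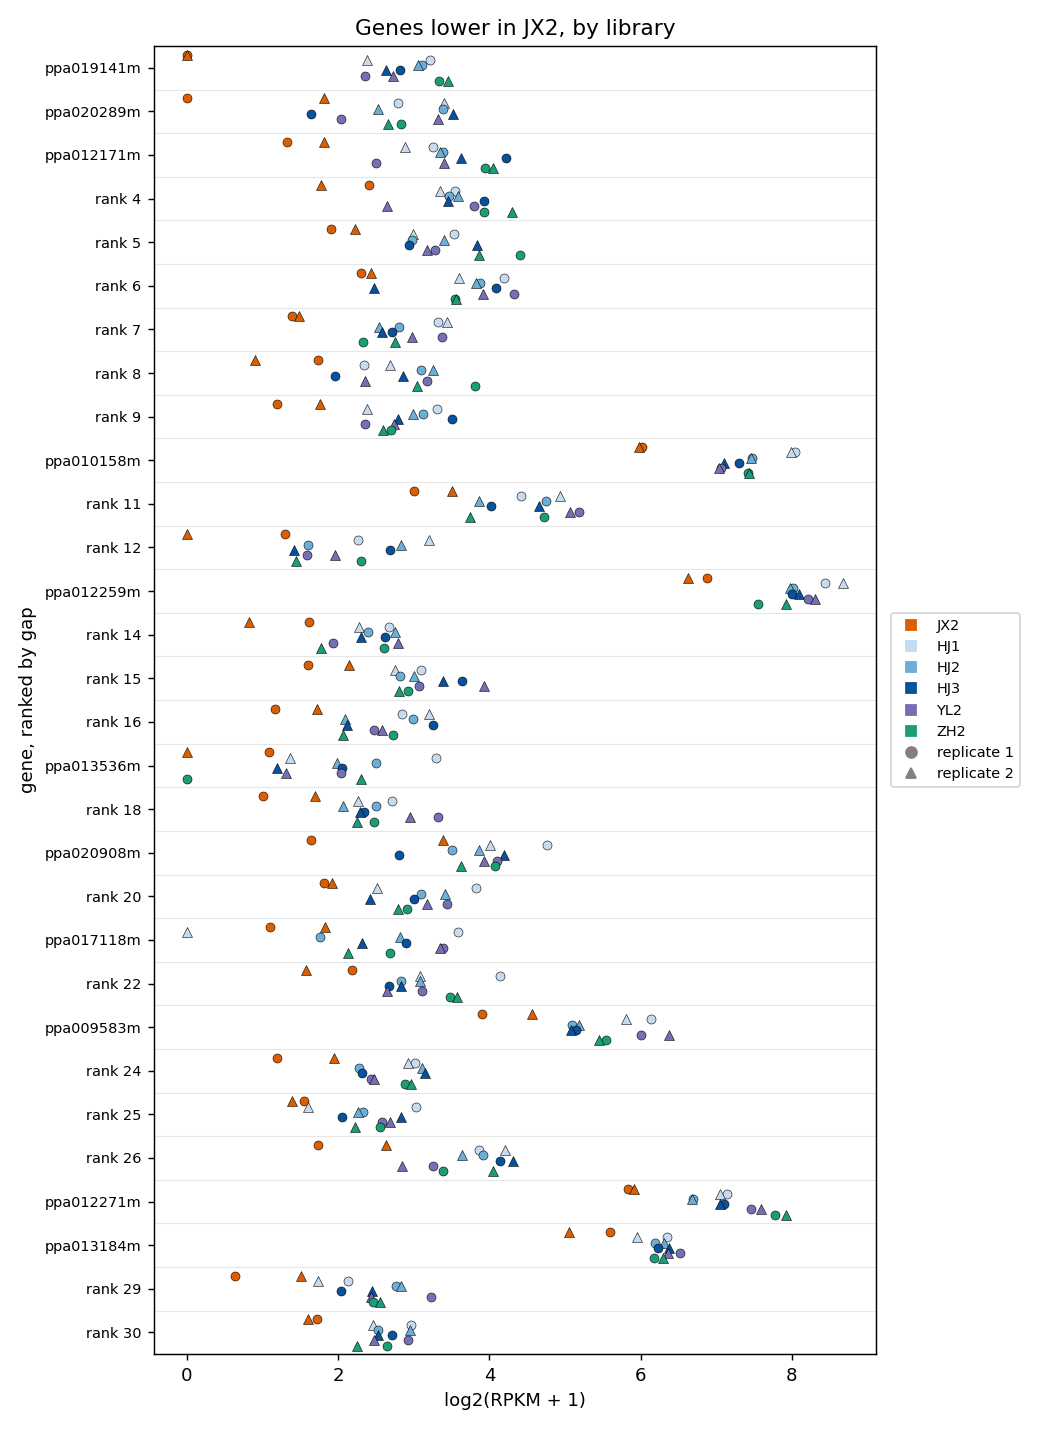
RPKM on the log2(RPKM + 1) scale (x axis) of the 30 genes lower in JX2 (y axis, by distance from the nearest group, most low genes shown by rank, rank 7 being ppa016693m and rank 9 ppa006946m), with a point per library, JX2 in orange, circles for replicate 1 and triangles for replicate 2. Most JX2 points lie near 0 to 10 RPKM, and the 5 genes read at 30 RPKM or more elsewhere stand to the right.

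The gene ppa019141m was not detected in JX2. Its RPKM was 0 in both JX2 libraries, against 8.28 and 4.21 at HJ1, 7.63 and 7.35 at HJ2 and 6.06 and 5.18 at HJ3, with 4.13 and 5.64 in YL2 and 9.12 and 9.96 in ZH2, on 187 reads in all. With 3 reads over both JX2 libraries as the floor, JX2 was at least 6.22-fold lower than YL2, the nearest group at 4.88 ± 1.07 RPKM (SD, n = 2). The next gene named, ppa012171m, was low but read. It stood at 1.51 and 2.52 RPKM in JX2, against 8.57 and 6.37 at HJ1, 9.44 and 9.14 at HJ2 and 17.6 and 11.3 at HJ3, with 4.68 and 9.54 in YL2 and 14.3 and 15.5 in ZH2. JX2 held 5 reads and YL2 held 28, and YL2 had 3.60 times the reads of JX2 for its depth (1.37 to 12.0). In both genes no JX2 library reached the lowest of the others.

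The 5 lower genes read at 30 RPKM or more in every other group rested on 58 to 273 JX2 reads. RPKM of ppa010158m was 63.9 and 62.0 in JX2, against 264 and 254 at HJ1, 176 and 176 at HJ2 and 156 and 137 at HJ3, with 133 and 130 in YL2 and 171 and 172 in ZH2. The JX2 mean was 62.9 ± 1.38 and that of YL2, the nearest group, was 131 ± 1.86, or 2.09 times the JX2 level (SD, n = 2). The gene stood highest in HJ1 and lower at each later stage, and its JX2 libraries lay below the last stage too. The gene ppa012259m stood at 116 and 98.2 RPKM in JX2, against 347 and 410 at HJ1, 258 and 251 at HJ2 and 256 and 272 at HJ3, with 297 and 316 in YL2 and 186 and 242 in ZH2. ZH2 averaged 2.00 times the JX2 level. The gene ppa012271m stood at 55.9 and 59.4 RPKM in JX2, against 140 and 132 at HJ1, 103 and 102 at HJ2 and 137 and 132 at HJ3, with 175 and 192 in YL2 and 218 and 241 in ZH2. HJ2 averaged 1.78 times JX2 and ZH2 stood highest, so the cultivars were spread more widely here than the stages.

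The gene ppa009583m had 14.0 and 22.7 RPKM in JX2, against 32.9 to 82.2 in the other 10 libraries, with HJ3 at 1.83 times the JX2 mean. The gene ppa013184m had 47.4 and 32.3 RPKM in JX2, against 61.2 to 90.9 in the other 10 libraries, with HJ1 at 1.78 times the JX2 mean. In both, the JX2 libraries did not reach the others.

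The remaining 21 lower genes that did not overlap included ppa019141m, ppa012171m and ppa016693m. The last stood at 1.62 and 1.81 RPKM in JX2, against 8.98 and 9.90 in HJ1, 9.33 and 6.84 in YL2, 4.03 and 5.72 in ZH2, and 4.84 to 6.02 in HJ2 and HJ3. JX2 held 6 reads and ZH2 held 29, and ZH2 had 2.89 times the reads of JX2 for its depth (1.18 to 8.51). The other 18 of this set held 1 to 12 reads in JX2, at 0 to 10.4 RPKM per library, against 1.68 to 35.5 RPKM in the other libraries. Their distances ran from -1.21 to -0.80, and the counting interval held 1 for 10 of the 18.

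In 4 lower genes the JX2 libraries overlapped the others, on 1 to 5 JX2 reads. The gene ppa020289m stood at 0 and 2.51 RPKM in JX2 and at 2.11 to 10.4 elsewhere, and ppa013536m at 1.12 and 0 RPKM in JX2 and at 0 to 8.81 elsewhere. The gene ppa020908m stood at 2.13 and 9.50 RPKM in JX2 and at 5.99 to 26.1 elsewhere, and ppa017118m at 1.15 and 2.56 RPKM in JX2 and at 0 to 11.04 elsewhere. These 4 were short, at 261 to 526 bp, and the counting interval held 1 for each.

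**Figure D3:**
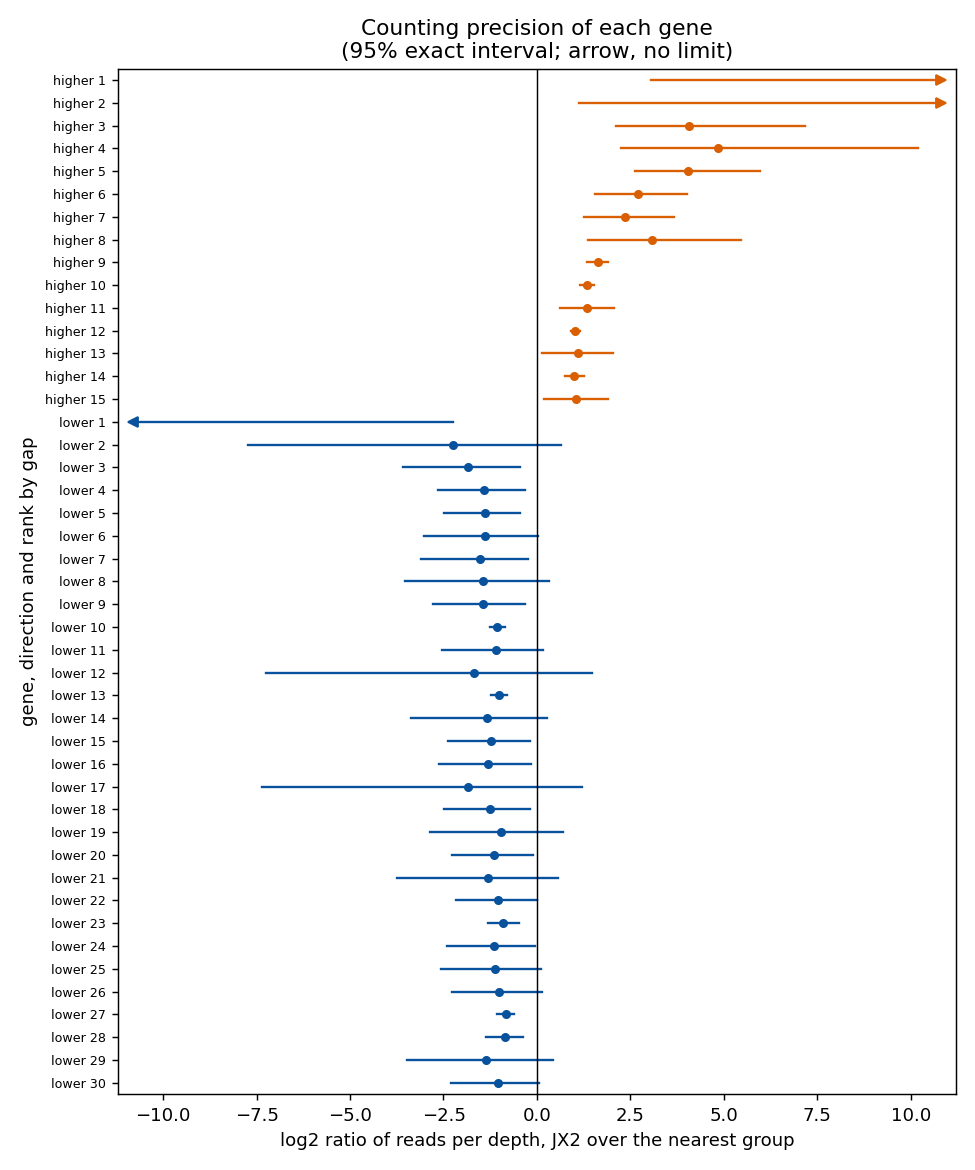
Log2 ratio of depth-corrected reads in JX2 over the nearest group (x axis) for the 15 higher and 30 lower genes (y axis, by rank of distance), with the 95% exact counting interval; an arrow marks an interval with no limit. The intervals pool the libraries of a group and cover counting error only. Those of the higher genes lie right of 0, and 14 of the 30 of the lower genes reach across it.

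Both groups of genes were short beside the genes they were drawn from. The median length worked back from the values was 1016 bp for the higher genes (342 to 3429) and 1068.5 bp for the lower genes (252 to 1755), against 1483 bp for the 5597 genes that met all conditions but the distance. A short gene has fewer reads at a given RPKM, and the part of length in the choice was not tested. The prefix ppb marked 1 of the 45 genes and 67 of the 5597.

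A separate fit with limma set JX2 against each of HJ2, YL2 and ZH2, all at stage 2. It called 12 of the 15 higher genes in all 3 comparisons (adjusted p under 0.05), where 0.894% of the 15217 genes tested were called. It called 12 of the 30 lower genes, where 1.17% of all were called. Because the choice used the same libraries, these counts describe the genes and support nothing. Among the higher genes the fit called all 6 nearly silent ones, all 4 read everywhere, and ppa008472m and ppa024588m of the 5 in between. The 6 nearly silent genes passed the filter of 1 RPKM in 2 libraries only through the JX2 libraries, so their calls carry no weight. Among the lower genes it called all 5 read at 30 RPKM or more, 7 of the 21 lower ones, and 0 of the 4 that overlapped. Leaving out JX2 replicate 1 or JX2 replicate 2 left 6 and 6 of the higher genes called, with 39 of the 45 genes past the filter on low values. The 6 nearly silent genes fell to that filter and could not be called there. For the lower genes, 6 were called without HJ2 replicate 1, 7 without HJ2 replicate 2 and 7 without JX2 replicate 1.

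Both JX2 libraries were above the other 10 in 14 of the 15 higher genes, and in 2.5% of all genes tested. They were below the other 10 in 26 of the 30 lower genes, and in 3.53% of all genes tested. The choice fixed these counts as well.

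Stability across the stages was a condition of the choice and not an absence of change. Over the 3 stages of 'Hu Jing Mi Lu', limma's F-test called 6 of the 45 genes, ppa005437m and ppa011626m among the higher and ppa010158m, ppa012259m, ppa009583m and ppa012271m among the lower. Of all genes tested, 48.9% were called there. All 6 belonged to the sets read in every group at 10 RPKM or more (higher) or 30 RPKM or more (lower). These sets held 4 and 5 genes, of which 2 and 4 were called. Most genes outside these sets were low in level, so the lack of a call says little about their stability. Without the HJ1 replicate 1 library, either HJ2, either YL2 or either ZH2 library, 1 of the 2 higher genes was called. Over the 5 groups other than JX2, 8 of the 45 were called, the same 6 with ppa008400m and ppa012171m, and 58.6% of all genes tested. In the same 2 sets, 3 of 4 and 4 of 5 were called over the 5 groups. The limit on the span lowers both counts over the 45 genes, and few reads can hide a change, so nothing is read from them.

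The replicate numbers allowed a reading in libraries that the choice had not used. The rule was applied to the 6 libraries of 1 replicate number, and the distance of JX2 was then read in the 6 libraries of the other. Replicate 1 alone gave 32 higher genes, and 11 of them lay at least 0.8 above the other groups in replicate 2, where 0.374% of the 5079 genes within the span limit did so. Replicate 2 alone gave 32 higher genes as well, and 11 repeated in replicate 1, where 0.338% of 5035 genes did so. The median distance of the 32 genes was 1.12 where they were chosen and 0.37 where they were read, and 1.22 and 0.22 the other way round. The full distance thus repeated for 34.4% of the 32 genes in both readings, and 20 and 21 of the 32 lay above all 5 groups by some amount. Only 11 of the 32 from replicate 1 and 10 of the 32 from replicate 2 were among the 15 higher genes. The shares are therefore not those of the 15.

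Lower genes were chosen and read in the same way. Replicate 1 gave 65 lower genes, of which 4 (6.15%) repeated by 0.8 or more in replicate 2, where 0.807% of the 5079 genes did so. Replicate 2 gave 49, of which 4 (8.16%) repeated in replicate 1, where 0.814% of 5035 did so. Taken as distance below the lowest group, their medians were 1.03 where chosen and -0.15 where read, and 0.99 and 0.05 the other way round, and 30 of the 65 and 27 of the 49 lay below all 5 groups by some amount. Only 17 of the 65 and 9 of the 49 were among the 30 lower genes. Some library pairs may share RNA, which the labels do not say, and this reading covers only what separates the libraries.

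**Figure D4:**
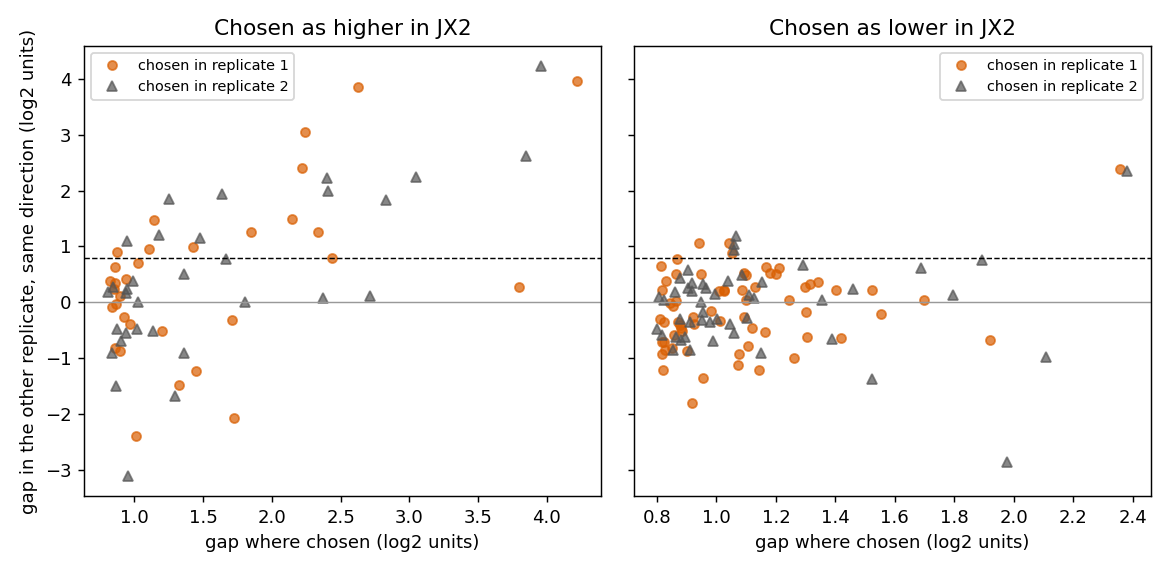
Distance of JX2 from the nearest group on the log2(RPKM + 1) scale, in the direction of the choice. The x axis is the replicate where genes were chosen and the y axis the other replicate. Each point is a gene, with a panel for higher genes and a panel for lower genes. Most of these genes are not among the 45. Circles are genes chosen in replicate 1 and triangles genes chosen in replicate 2. The dashed lines mark 0.8. Of the higher genes 11 of 32 repeat past the line for each choosing replicate, and of the lower genes 4 of 65 and 4 of 49.

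In 7 higher and 3 lower genes the whole rule was met in each replicate alone. The higher ones were ppa016741m, ppa023847m, ppa012022m, ppa019628m, ppa008400m, ppa005437m and ppa011626m. The lower ones were ppa019141m, with distances of -2.36 and -2.38 in the separate replicates, ppa010158m with -1.04 and -1.06, and ppa016693m with -0.94 and -1.06. When each of the 12 libraries was left out in turn, 6 of the 15 higher genes and 4 of the 30 lower genes met the rule every time. The 6 were the first 6 of the 7 named, and the 4 were ppa019141m, ppa010158m, ppa016693m and ppa006946m. The last stood at 1.28 and 2.37 RPKM in JX2, against 4.12 to 10.4 in the other 10 libraries, on 8 reads in JX2 and 34 in YL2, its nearest group. Without JX2 replicate 1 the rule took 32 higher and 75 lower genes, of which 12 and 19 were among the 45. Without JX2 replicate 2 it took 28 and 75, of which 14 and 22 were among them.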

How the data were processed

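RNA-seq libraries of peach fruit mesocarp were grouped by the cultivar, stage and replicate in their titles. The values deposited by the authors are RPKM in 1 table per library, per the file headers. The submitters' processing notes list TopHat 1.4.0, Bowtie 0.12.8, DESeq 1.10.1 and HTSeq 0.5.3 without saying what each did. The sources used here give no build, annotation or strand handling, so overlapping or near-identical genes are uncertain. RPKM divides by depth, so a gene that takes more of a library lowers all others.

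Reads, depths and gene lengths were worked back from the deposited RPKM with Python 3.11.15, numpy 2.4.6, pandas 2.3.3 and scipy 1.17.1: whole reads within 0.001 were found for 17316 of the 17316 genes read in 2 or more libraries, as 99.976% to 99.997% of depth. Ratios of reads have exact 95% binomial intervals, and a count of 0 allows up to 3 reads; both cover counting error only. Limma 3.58.1 in R 4.3.3 was fitted to log2(RPKM + 1), which understates changes of low genes, for 15217 genes that reached 1 RPKM in 2 or more libraries (45 of the 45 passed), with all 12 libraries in 6 group means, a variance trend and Benjamini-Hochberg adjustment over all genes. The procedures were tested on simulated data. There limma called 97% of genes set 4-fold higher and 78% of genes set 4-fold lower in JX2. Smaller changes were not simulated, so these shares do not carry over to the 45 genes.

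The 45 genes, their sets, the tests and the alternatives (pseudocount, scaling, minimum level, span, distance, filter, replicate block, each library left out) were chosen with earlier results of these data known. The naming rule took the 2 genes farthest from the other groups in each direction, among those whose JX2 libraries did not overlap the others. Other named genes were chosen after their values were seen. Of the 27864 identifiers, 0 matched the table of assembly Prunus_persica_NCBIv2 with its 26412 genes, so no name, position or sequence is given.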

Additional observations from a re-analysis of the deposited data

How the results depend on the processing

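Counts of genes taken by the rule are given as higher then lower, with 15 and 30 as reported. A pseudocount of 2 gave 23 and 19, and median-ratio rescaling 24 and 19. Scaling by the sum of RPKM without the 10 most abundant genes gave 35 and 31. No minimum level gave 58 and 47, and a distance of at least 0.6 gave 33 and 69. A minimum of 10 RPKM gave 15 lower genes and a distance of at least 1 gave 12. Leaving out 1 library or 1 replicate number gave 13 to 32 higher and 23 to 75 lower genes. Limma called 12 higher and 12 lower genes against HJ2, YL2 and ZH2; leaving out a library gave 6 to 13 and 6 to 14, and no filter on low values gave 6 lower. Over the HJ stages 2 higher and 4 lower genes were called, against 1 and 2 with no filter, and 1 to 2 of the higher with a library left out. Over the 5 other groups, counts stayed within 1.5 times under every alternative run. Of the genes chosen in 1 replicate, 2 of the lower from replicate 1 repeated with a pseudocount of 2, against 4, and 7 of the lower from replicate 2 with rescaling, against 4. Counted by any distance, the repeats were 20 higher and 30 lower from replicate 1, and 21 and 27 from replicate 2. Replicate numbers did not pair the samples: deviations of same-numbered libraries correlated between -0.067 and 0.050 over 15 pairs of groups. With the replicate number as a block, limma called 13 higher and 11 lower genes against the 3 groups, 2 and 4 over the HJ stages, and 3 and 4 over the 5 groups. The distances of ppa016741m, ppa023847m, ppa019141m and ppa012171m, the genes run singly, kept their direction under each alternative. For ppb020505m the JX2 libraries did not go together. Replicate 1, at 23.6 RPKM, lay above all 10 other libraries. Replicate 2, at 0.938 RPKM on 1 read, lay at their low end, level in reads with HJ3 replicate 2. Depth limits the lower genes, 25 of which rest on 20 JX2 reads or fewer. The cause of these changes was not tested.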

Other observations

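Detection alone, with no limit on level or span, gave a wider view of what was read in JX2 and not elsewhere. Only 10 genes had reads in both JX2 libraries and in none of the other 10; 2 of them are ppa016741m and ppa023847m, and the other 8 had 2 to 5 reads each. JX2 held 3224324 reads in all. YL2 held 5011277 and ZH2 5394896, and the same count was 27 in YL2 and 39 in ZH2, so these counts are not comparable between groups without regard to depth.

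In the opposite direction, 37 genes had 0 reads in JX2 and at least 1 read in each of the other 10 libraries, against 24 such genes in YL2 and 54 in ZH2. JX2 was the least deep of these groups, so these counts are not comparable between groups either. Some of the 37 held few reads in each library elsewhere, and for those 0 reads in JX2 says little. Of the 37, ppa019141m is 1 of the 45 genes, and 21 of the other 36 spanned 1.2 or more over the other 5 groups. The most read of these genes, both singled out after their values were seen, were ppa009430m with 451 reads elsewhere and ppa018318m with 344. The gene ppa018318m had 0 reads in JX2 and averaged 5.02 ± 0.765 RPKM in HJ1, 9.09 ± 1.00 in HJ2, 14.0 ± 1.92 in HJ3, 10.01 ± 0.472 in YL2 and 19.0 ± 2.31 in ZH2 (SD, n = 2). It was thus undetected in JX2 at more reads elsewhere than ppa019141m, with its 187, and was left out for a span of 1.73. The gene ppa009430m had 0 reads in JX2 and averaged 69.2 RPKM in HJ1, 23.2 in HJ2, 2.59 in HJ3, 2.46 in YL2 and 4.86 in ZH2, so its level outside JX2 was highest at the earliest stage.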
